A study of Mus musculus with 15 samples.

Results

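The Cyp2a and Cyp2b genes encode cytochrome P450 monooxygenases of the liver, and 7 of them were followed here by name: Cyp2a4, Cyp2a5, Cyp2a12, Cyp2a22, Cyp2b9, Cyp2b10 and Cyp2b13. They are 7 of 35540 genes in the table, and all 7 were among the 13916 genes that passed a filter on low counts. The members were chosen by their measured levels and fold changes between these same livers, so their values in the comparisons below describe them and test nothing. Liver RNA was sequenced in bulk as 5 libraries of Txnip knockout mice (KO), 5 of knock-in mice that carry C247S in TXNIP (C247S KI) and 5 of wild-type mice (WT), all after 8 weeks of high-fat diet. TXNIP binds thioredoxin, and C247S replaces the cysteine through which it bonds to it covalently, so the series sets loss of the protein beside loss of that bond. The labels give no age, sex, strain or allele design, and do not state whether the libraries are separate animals, so p-values measure only the spread between libraries, which may be technical. The titles also carry numbers, 1176 to 1288 in KO, 3082 to 3154 in C247S KI and 3116 to 3121 in WT. Their meaning is not given, and whatever they mark in KO cannot be told apart from the knockout.

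Cytochrome P450s are haem enzymes of the endoplasmic reticulum that hydroxylate drugs, steroids and other lipids with electrons from P450 reductase, and hepatocytes hold most of them. In mice the Cyp2a and Cyp2b genes lie in a row on chromosome 7. Cyp2a5 hydroxylates coumarin and nicotine, and Cyp2a4, which differs from it by few residues, hydroxylates testosterone. Cyp2b10 is the textbook target of the nuclear receptor CAR and is induced by phenobarbital, while Cyp2a4, Cyp2b9 and Cyp2b13 are known for higher levels in female than in male mouse liver.

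On GRCm38, in the GENCODE annotation, the row begins with Cyp2b10 (ENSMUSG00000030483) at chr7:25897620-25926624, followed by Cyp2b13 (ENSMUSG00000040583) at chr7:26061497-26096197 and Cyp2b9 (ENSMUSG00000040660) at chr7:26173411-26210661. Cyp2a4 (ENSMUSG00000074254) follows at chr7:26307169-26315088 and Cyp2a5 (ENSMUSG00000005547) at chr7:26835305-26843548. Cyp2a22 (ENSMUSG00000091867) lies at chr7:26931631-26939384 on the minus strand, and Cyp2a12 (ENSMUSG00000060407) at chr7:27029081-27037375. The other 6 genes are on the plus strand.

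Neighbouring members are close copies, and the bases upstream of their starts show how close. The windows printed here are the 250 bases before each RefSeq start on GRCm38.p6, shown because Cyp2a4 and Cyp2a5, with nearly the same upstream sequence, differed from WT in opposite directions in KO livers, while Cyp2b9 and Cyp2b13 were both lower. Capitals mark bases that differ from the named partner or face a gap within the aligned stretch. Bases beyond its ends were not compared and are in lower case, which are the first 18 of Cyp2a22, the last 11 of Cyp2a12 and 1 each of Cyp2a4 and Cyp2a5. The Cyp2a4 window is chr7:26306942-26307191 and the Cyp2a5 window chr7:26835089-26835338, each with the other as partner. The Cyp2a12 window is chr7:27028840-27029089 and the Cyp2a22 window chr7:26939387-26939636, the second read from the minus strand, again each with the other as partner. The Cyp2b9 window is chr7:26173159-26173408, with Cyp2b13 as partner. RefSeq and GENCODE starts differ, so the windows of Cyp2a4, Cyp2a5 and Cyp2a12 end inside the GENCODE spans given above. Distances to motifs below are counted from the RefSeq starts.
Cyp2a5: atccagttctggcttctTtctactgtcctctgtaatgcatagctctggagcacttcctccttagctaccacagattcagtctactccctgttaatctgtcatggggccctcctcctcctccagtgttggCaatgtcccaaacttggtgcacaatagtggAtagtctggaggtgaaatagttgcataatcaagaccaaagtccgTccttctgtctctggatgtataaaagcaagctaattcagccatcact
Cyp2a4: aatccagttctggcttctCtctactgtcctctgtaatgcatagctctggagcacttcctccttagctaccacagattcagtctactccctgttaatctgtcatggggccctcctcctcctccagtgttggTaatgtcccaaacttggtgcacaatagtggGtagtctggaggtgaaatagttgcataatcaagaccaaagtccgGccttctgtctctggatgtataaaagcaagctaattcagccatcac
Cyp2a12: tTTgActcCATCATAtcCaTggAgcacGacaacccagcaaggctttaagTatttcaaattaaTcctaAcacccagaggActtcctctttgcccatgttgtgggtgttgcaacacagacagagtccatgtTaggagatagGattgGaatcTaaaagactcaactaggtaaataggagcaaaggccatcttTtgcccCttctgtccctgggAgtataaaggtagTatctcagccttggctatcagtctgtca
Cyp2a22: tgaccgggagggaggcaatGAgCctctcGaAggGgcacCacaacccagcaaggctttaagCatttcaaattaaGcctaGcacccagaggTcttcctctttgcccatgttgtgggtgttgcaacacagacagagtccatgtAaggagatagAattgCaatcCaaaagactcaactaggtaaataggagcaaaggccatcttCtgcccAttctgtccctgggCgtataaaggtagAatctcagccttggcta
Cyp2b9: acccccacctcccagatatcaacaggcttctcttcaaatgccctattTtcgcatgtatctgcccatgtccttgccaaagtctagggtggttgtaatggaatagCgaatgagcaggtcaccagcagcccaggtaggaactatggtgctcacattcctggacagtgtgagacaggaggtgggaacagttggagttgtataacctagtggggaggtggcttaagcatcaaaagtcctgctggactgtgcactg

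The Cyp2a4 and Cyp2a5 windows were identical in 245 of 249 aligned positions (98.4%), with 4 substitutions. Cyp2b9 and Cyp2b13 were identical in 248 of 250 (99.2%), with 2 substitutions. Cyp2a12 and Cyp2a22 were further apart, with 213 of 239 identical positions (89.1%), 19 substitutions and 7 gap positions. Cyp2b10 stood apart from the other Cyp2b genes, at 71.7% identity to either of them.

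Short motifs, chosen with these windows in view, were searched on both strands of the 250 bases before the start. TATAAA, the TATA box, was present in 4 of 7 members, all of them Cyp2a genes, between 28 and 39 bases before the start. It was present in 12.4% of 32851 windows of the same length over all genes. TTGCNNAA, read by C/EBP and PAR bZIP factors, was present in 5 of 7 members and in 9.56% of all windows. Cyp2a4 and Cyp2a5 both carried it as TTGCATAA, at 70 and 71 bases before the start, as did Cyp2b10 at 58 bases. CAAAGTC, a core of HNF4 sites, was present in Cyp2a4, Cyp2a5, Cyp2b9 and Cyp2b13, that is 4 of 7 members, and in 3.84% of all windows. In Cyp2b9 and Cyp2b13 it overlapped the match to TTGCNNAA, which read TTGCCAAA there. AGGTCA, a nuclear receptor half-site, was present in Cyp2b9 and Cyp2b13 only, 138 bases before the start, and in 14% of all windows. TTCNNNGAA, read by STAT5, and CACGTG, the E-box, matched 0 of 7 members, against 7.02% and 6.02% of all windows. A match is a run of letters and not a site shown to be bound.

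The transcripts are close copies too, which bears on how far reads could be assigned to one gene. Cyp2a4 and Cyp2a5 transcripts were 98.2% identical, Cyp2a12 and Cyp2a22 96.1%, Cyp2b9 and Cyp2b13 89.2% and Cyp2b9 and Cyp2b10 86.1%. Of the 31-base words of Cyp2a4 transcripts, 41.1% occurred in no other annotated gene and 55.9% also occurred in Cyp2a5. For Cyp2a5 41.5% occurred in no other gene, for Cyp2a12 58.4% and for Cyp2a22 60.6%. Cyp2b9 and Cyp2b10 had more sequence of their own, with 73.9% and 78.4%, while Cyp2b13, at 59.2%, lay between Cyp2a12 and Cyp2a22. The deposited values are estimated counts that divide ambiguous reads among transcripts, so the split between Cyp2a4 and Cyp2a5 carries more doubt than that between the Cyp2b genes.

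Each library held 18047577 to 23379940 estimated counts, so counting error matters for the lowest members only. Txnip itself averaged 99.0 ± 24.9 CPM (counts scaled to library size) in KO, 192 ± 65.7 CPM in C247S KI and 222 ± 56.2 CPM in WT livers (SD, n = 5 each). The KO libraries, at 70.9 to 123 CPM, were all below the WT libraries, at 180 to 320, but not at 0, and a count summed over transcripts cannot say whether the deleted part was read. The C247S KI libraries, at 99.9 to 280 CPM, overlapped both KO and WT in Txnip. Summed over 8 hepatocyte markers, levels ran over 54097 to 74182 CPM in KO, 74753 to 122443 in C247S KI and 86841 to 103864 in WT livers. The lower KO sum was that of Alb, since the other 7 summed to 23677 to 28888 CPM in KO, 19737 to 37039 in C247S KI and 23426 to 29220 in WT. Over 10 pericentral markers the sums were 13087 to 16196 CPM in KO, 7093 to 11242 in C247S KI and 9128 to 14331 in WT. Most of that was Cyp2e1, which averaged 10683, 6260 and 7718 CPM in KO, C247S KI and WT, so the sums say little of the other pericentral markers. Macrophage markers summed to 85.7 to 322, 65.6 to 171 and 131 to 361 CPM, endothelial ones to 150 to 256, 138 to 199 and 120 to 299, and cholangiocyte ones to 25.7 to 38.7, 46.7 to 123 and 35.3 to 53.8, in KO, C247S KI and WT in that order. Stellate markers summed to 133 to 180, 102 to 235 and 171 to 218 CPM, and T, NK and B cell markers to 2.39 to 4.82, 3.74 to 6.36 and 3.51 to 11.5. No marker was at 0 throughout. In bulk tissue, fewer cells of a type and less RNA per cell cannot be told apart. On the second principal component of all genes KO 5, C247S KI 5 and WT 1 lay farthest out, and the counts of members are also given without them. They are given as well without WT 1, C247S KI 3 and C247S KI 5, a set taken over from an earlier analysis, although C247S KI 3 did not stand apart on the components computed here. Dixon's test on unlogged CPM of each member in each group, 21 in all, marked 0 libraries as outlying. It cannot mark libraries that are high together, such as C247S KI 1 and C247S KI 5 for Cyp2a4, and it was not run on log2 CPM. On that scale WT 1 stood at 4.96 for Cyp2b9, against 7.33 to 8.02 in the other WT libraries. Every library held reads of Y-linked genes, with at least 119 counts of Kdm5d.

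The members did not share one direction in KO. In KO livers Cyp2a5 was 2.15-fold higher than in WT, Cyp2a12 did not pass the threshold, and the other 5 members were lower by log2 fold changes of -2.49 to -6.18. In C247S KI livers Cyp2b13 was lower than in WT and no other member passed. Cyp2a4 and Cyp2a22 differed widely between the C247S KI libraries.

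**Figure D1:**
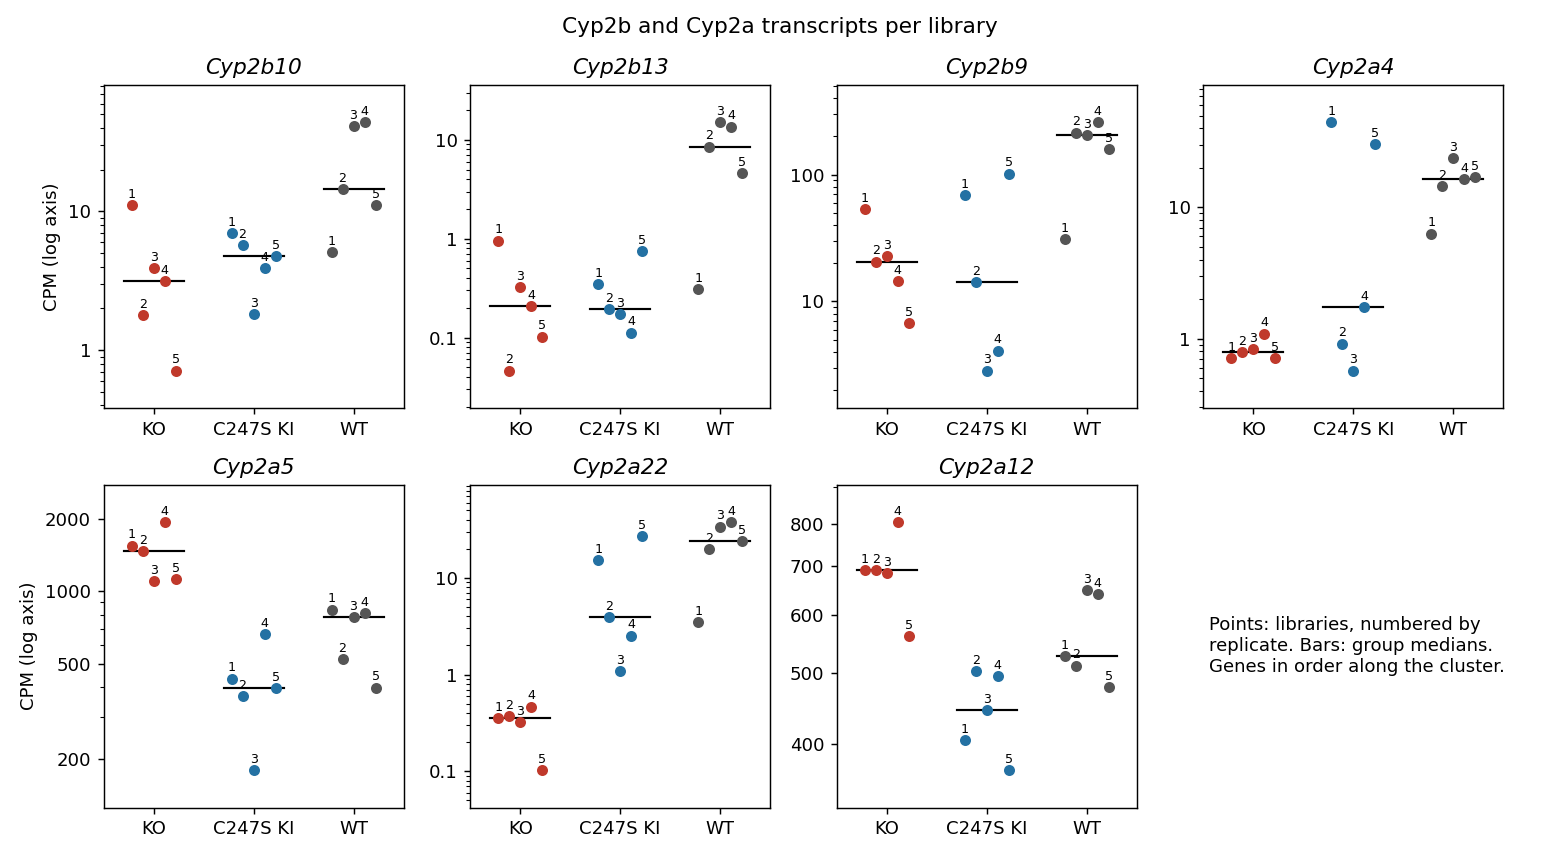
CPM of each member in every library on log axes, for KO, C247S KI and WT livers, with points numbered by replicate and bars at group medians. KO points of Cyp2a5 lie above all WT points, those of Cyp2a4 and Cyp2a22 below all WT points, and WT 1 sits within the KO range for Cyp2b13.

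Cyp2a5, the coumarin hydroxylase, had 1553, 1476, 1104, 1951 and 1130 CPM in KO livers 1 to 5. It had 433, 365, 179, 663 and 394 CPM in C247S KI livers and 840, 523, 781, 812 and 397 CPM in WT livers. Every KO library was above every library of the other groups, while C247S KI and WT overlapped. The means were 1443 ± 348 CPM in KO, 407 ± 173 in C247S KI and 670 ± 198 in WT (SD, n = 5 each). The fitted log2 fold change was 1.11 (SE 0.28) for KO against WT, 1.83 (SE 0.29) for KO against C247S KI and -0.72 (SE 0.28) for C247S KI against WT. The first and second passed an adjusted p of 0.05 in edgeR's quasi-likelihood test over all genes, and the third did not. The call against WT was lost when any one of KO 1, KO 2, KO 4, WT 2 or WT 5 was left out, at log2 fold changes of 0.97 to 1.11. The call against C247S KI held in all 10 such fits.

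Cyp2a4, the testosterone hydroxylase, moved the other way in KO. It had 0.706, 0.786, 0.826, 1.09 and 0.712 CPM in KO livers. In C247S KI livers it had 44.5, 0.915, 0.570, 1.74 and 30.3 CPM, and in WT livers 6.31, 14.5, 23.8, 16.4 and 17.0 CPM. The KO libraries were uniformly low and did not overlap WT, whereas C247S KI libraries 1 and 5 were above every WT library and the other 3 were near the KO level. The log2 fold change was -4.24 (SE 0.98) for KO against WT and -4.25 (SE 0.98) for KO against C247S KI, both past the threshold. For C247S KI against WT it was 0.01 (SE 0.77), a mean over libraries that fell on either side of WT. Both calls held whichever library was left out, with the second at -3.33 without C247S KI 1. They were lost in limma-voom, with log2 fold changes of -4.11 and -2.52, and the second also without KO 5, C247S KI 5 and WT 1 together, at -3.84.

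The share of Cyp2a4 in the summed reads of Cyp2a4 and Cyp2a5 followed from this. It was 0.0454% to 0.0748% in KO livers. In C247S KI livers it was 9.31% in library 1 (95% Wilson interval 8.78% to 9.87%) and 7.14% in library 5 (6.66% to 7.66%), but 0.25% to 0.317% in the other 3. In WT livers it ran from 0.746% in library 1 to 4.1% in library 5. The intervals cover counting error only. Because Cyp2a4 was so small a part of the pair, the sum behaved as Cyp2a5 did, with log2 fold changes of 1.07 (SE 0.28) for KO against WT, -0.70 (SE 0.28) for C247S KI against WT and 1.77 (SE 0.29) for KO against C247S KI. How far Cyp2a5 reads were assigned to Cyp2a4 in these estimates was not tested.

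Cyp2a12, which hydroxylates steroids and secondary bile acids in the mouse, varied least. It had 691, 691, 685, 805 and 562 CPM in KO, 405, 503, 445, 495 and 368 CPM in C247S KI and 527, 512, 649, 642 and 479 CPM in WT livers. KO libraries lay above all C247S KI libraries and overlapped WT. The log2 fold change was 0.63 (SE 0.14) for KO against C247S KI, which passed the threshold and did so in all 10 fits that left out 1 library. It was 0.29 (SE 0.14) for KO against WT and -0.34 (SE 0.14) for C247S KI against WT, which did not pass.

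Cyp2a22, the near copy of Cyp2a12, had the widest range. It had 0.353, 0.370, 0.321, 0.466 and 0.102 CPM in KO livers, which were 2 to 9 estimated counts per library. In C247S KI livers it had 15.3, 3.95, 1.08, 2.53 and 27.0 CPM, and in WT livers 3.52, 19.9, 34.0, 37.9 and 24.1 CPM. All KO libraries were below all libraries of the other groups, and C247S KI libraries 1 and 5 were again the high ones of their group. The log2 fold change was -6.18 (SE 0.91) for KO against WT and -4.94 (SE 0.91) for KO against C247S KI, both past the threshold whichever library was left out. The second was -4.16 without C247S KI 5 and was lost in limma-voom at -4.22. For C247S KI against WT it was -1.24 (SE 0.64), which did not pass. Over all libraries 79.3% of the Cyp2a22 counts came from Cyp2a22-201 and 20.7% from the retained-intron transcript Cyp2a22-202. Cyp2a22-202 summed to 2 counts in KO, 401 in C247S KI and 339 in WT, and Cyp2a22-201 to 31, 743 and 2063.

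Cyp2b10, the CAR target, had 11.1, 1.80, 3.90, 3.16 and 0.712 CPM in KO livers. It had 6.97, 5.73, 1.82, 3.93 and 4.76 CPM in C247S KI livers and 5.07, 14.4, 41.4, 44.0 and 11.1 CPM in WT livers. WT 3 and WT 4 were the high libraries, WT 1 was within the range of both other groups, and KO 1 was level with WT 5. The log2 fold change was -2.49 (SE 0.62) for KO against WT, which passed the threshold, and -2.31 (SE 0.62) for C247S KI against WT, which did not. Between KO and C247S KI it was -0.18 (SE 0.63), not past the threshold. The KO call was lost without KO 2, KO 3, KO 4, KO 5, WT 3 or WT 4, at log2 fold changes of -2.46 to -2.11, and without KO 1 the value was -3.26.

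Cyp2b9 was the most abundant Cyp2b transcript. It had 53.5, 20.6, 22.8, 14.5 and 6.76 CPM in KO, 69.3, 14.3, 2.85, 4.10 and 102 CPM in C247S KI and 31.1, 214, 206, 259 and 160 CPM in WT livers. Only WT 1 lay within the range of the other groups, and 4 of 5 WT libraries were above every KO and C247S KI library. The log2 fold change was -2.88 (SE 0.83) for KO against WT, past the threshold. It was -2.17 (SE 0.80) for C247S KI against WT and -0.71 (SE 0.78) for KO against C247S KI, neither past it. The KO call was lost without any one of KO 2 to KO 5 or WT 2 to WT 5, at -2.90 to -2.64, and also in limma-voom at -2.89.

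Cyp2b13 was the lowest member in WT per kilobase. It had 0.958, 0.0462, 0.321, 0.207 and 0.102 CPM in KO, 0.348, 0.193, 0.171, 0.112 and 0.752 CPM in C247S KI and 0.310, 8.54, 15.1, 13.6 and 4.63 CPM in WT livers. WT 1 was as low as the KO and C247S KI libraries, and the other 4 WT libraries were above all of them. The log2 fold change was -4.67 (SE 0.79) for KO against WT and -4.64 (SE 0.78) for C247S KI against WT, both past the threshold, and -0.03 (SE 0.95) for KO against C247S KI. The KO call held whichever library was left out, with a value of -5.58 without KO 1, and was lost in limma-voom at -4.42. The C247S KI call was lost without C247S KI 1, C247S KI 2, C247S KI 3, WT 3 or WT 4, at -4.67 to -4.34, and the value was -5.27 without C247S KI 5. It was also lost in limma-voom at -4.08 and with only these 2 groups in the fit at -4.64.

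**Figure D2:**
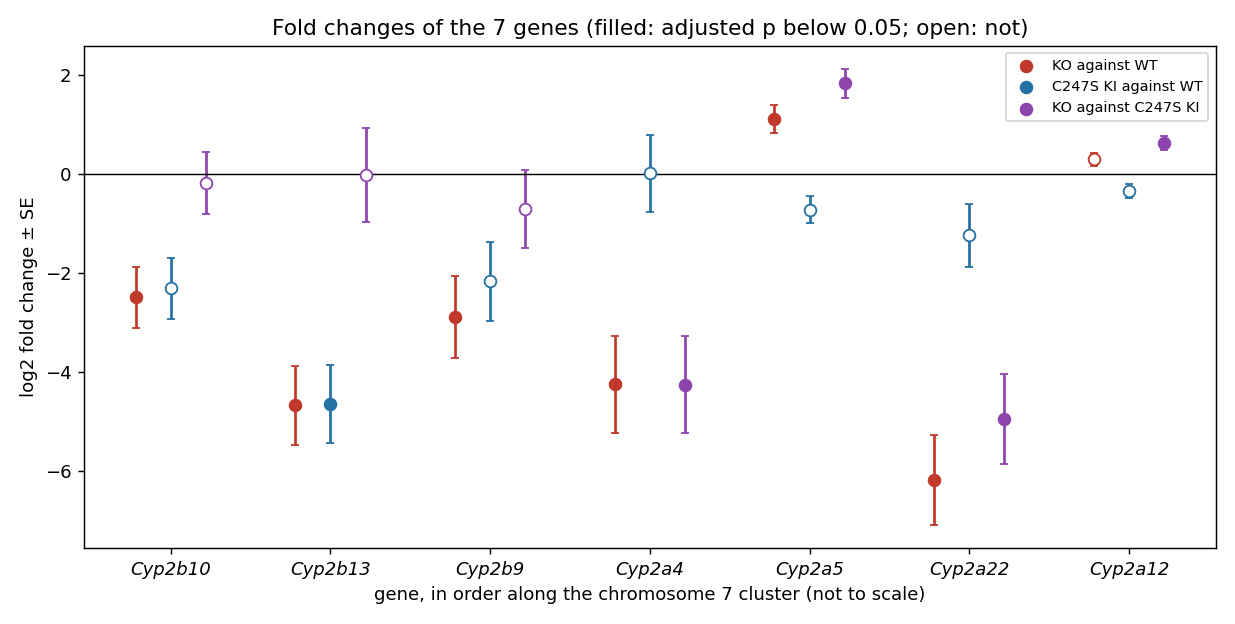
Fitted log2 fold changes of the 7 members with bars of ± 1 SE, filled where the adjusted p was below 0.05, for KO against WT, C247S KI against WT and KO against C247S KI. Cyp2a5 is at 1.11 in KO against WT and -0.72 in C247S KI against WT, while Cyp2b10 and Cyp2b13 have nearly the same values in both.

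Counted over the family, 6 of 7 members passed the threshold between KO and WT, with 1 higher and 5 lower in KO, where 6.75% of all genes tested passed it (2.56% higher and 4.19% lower). Without overlap between the groups stood 3 members, 1 higher and 2 lower, against 9.6% of all genes, 4.51% higher and 5.09% lower. The median log2 fold change of the 7 was -2.88, beside -0.01 over all genes tested. In C247S KI against WT 1 of 7 passed, lower, where 0.0862% of all genes passed, 0.0647% higher and 0.0216% lower, and the median was -1.24, beside 0.0024 over all genes. There 0 members stood without overlap, against 1.32% of all genes, 0.726% higher and 0.589% lower. In KO against C247S KI 4 of 7 passed, 2 higher and 2 lower, where 10.3% of all genes passed, 4.41% higher and 5.85% lower, and the median was -0.18, beside -0.0291 over all genes. Without overlap stood 2 higher and 1 lower, against 9.67% of all genes, 4.73% higher and 4.94% lower. Nothing is read from these counts, because the members were chosen for such differences. The comparisons share their libraries in pairs, so their values stand side by side and are not independent. Without WT 1, C247S KI 3 and C247S KI 5 the counts of members called were the same. Without KO 5, C247S KI 5 and WT 1 they were the same but for 1 member lower instead of 2 in KO against C247S KI, where Cyp2a4 was lost at -3.84. Both sets were left out after seeing the data.

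The members can be set against each other per length of transcript. In KO livers Cyp2a5 was highest at 723 ± 170 CPM per kilobase (SD, n = 5), followed by Cyp2a12 at 401 ± 50.8, and the ranges of the pair did not overlap. In C247S KI livers Cyp2a12 averaged 259 ± 34.4 CPM per kilobase and Cyp2a5 204 ± 86.2, with overlapping ranges. In WT livers Cyp2a5 averaged 336 ± 97.1 CPM per kilobase and Cyp2a12 330 ± 46.3, and their ranges overlapped too. By mean Cyp2b9 came next in every group, at 12.6, 20.5 and 92.8 CPM per kilobase in KO, C247S KI and WT. The remaining 4 genes had lower means in every group, 0.174 to 2.19 CPM per kilobase in KO, 0.168 to 8.97 in C247S KI and 4.5 to 12.4 in WT. Among these 4 Cyp2b13 was lowest in each of the 5 WT libraries, and the WT ranges of Cyp2a4, Cyp2a22 and Cyp2b10 overlapped.

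As shares of the summed CPM of the 7 genes, Cyp2a5 made up 60.7% to 70.3% in KO, 28.4% to 56.6% in C247S KI and 36.3% to 59.5% in WT livers. Cyp2a12 made up 29.0% to 37.7%, 39.7% to 70.6% and 35.2% to 43.8% in the same groups. The other 5 genes together made up 0.493% to 2.88% in KO. In C247S KI they reached 14% in library 1 and 17.8% in library 5, with a group median of 2.81%. In WT they made up 3.28% in library 1 and as much as 20.8% in another, with a median of 19.9%.

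**Figure D3:**
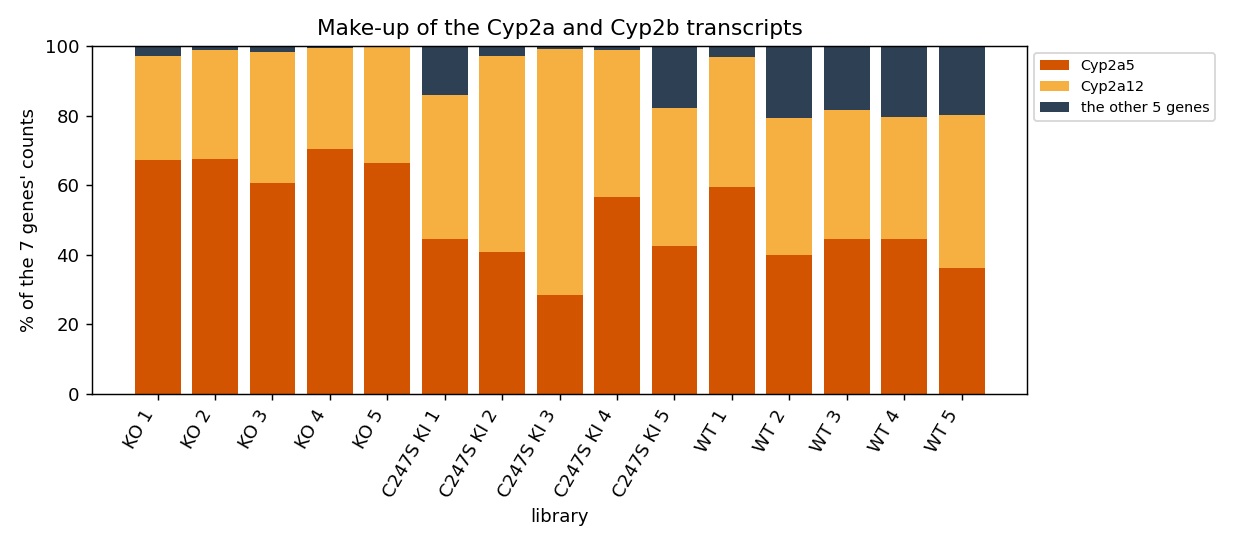
Cyp2a5, Cyp2a12 and the other 5 members as percentages of the family's summed CPM, stacked per library for KO, C247S KI and WT livers. KO bars consist almost wholly of Cyp2a5 and Cyp2a12, with 0.493% to 2.88% from the other 5 members. Those 5 form a visible band in 4 WT libraries and in C247S KI libraries 1 and 5.

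Within WT and within C247S KI the same libraries were high or low for several members. WT 1 was lowest of the WT libraries for Cyp2a4, Cyp2a22, Cyp2b9, Cyp2b10 and Cyp2b13, yet highest for Cyp2a5. C247S KI 1 and C247S KI 5 were the highest of their group for Cyp2a4, Cyp2a22, Cyp2b9 and Cyp2b13. In KO livers KO 1 was highest for the 3 Cyp2b genes and KO 4 for the 4 Cyp2a genes. For Cyp2a4 and Cyp2a22 that order rests on 14 to 21 and 2 to 9 counts per library, which counting error could reorder. As a description over 15 libraries that share groups and scaling, Pearson's r of log2 CPM was 0.91 for Cyp2a4 and Cyp2a22, and 0.85 after group means were removed. It was 0.90 for Cyp2b10 and Cyp2b13 (0.79 within groups) and 0.74 for Cyp2a22 and Cyp2b9 (0.93 within groups). For the near copies Cyp2a4 and Cyp2a5 it was -0.32 (0.25 within groups), and for Cyp2a5 and Cyp2a12 0.84 (0.47 within groups).

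**Figure D4:**
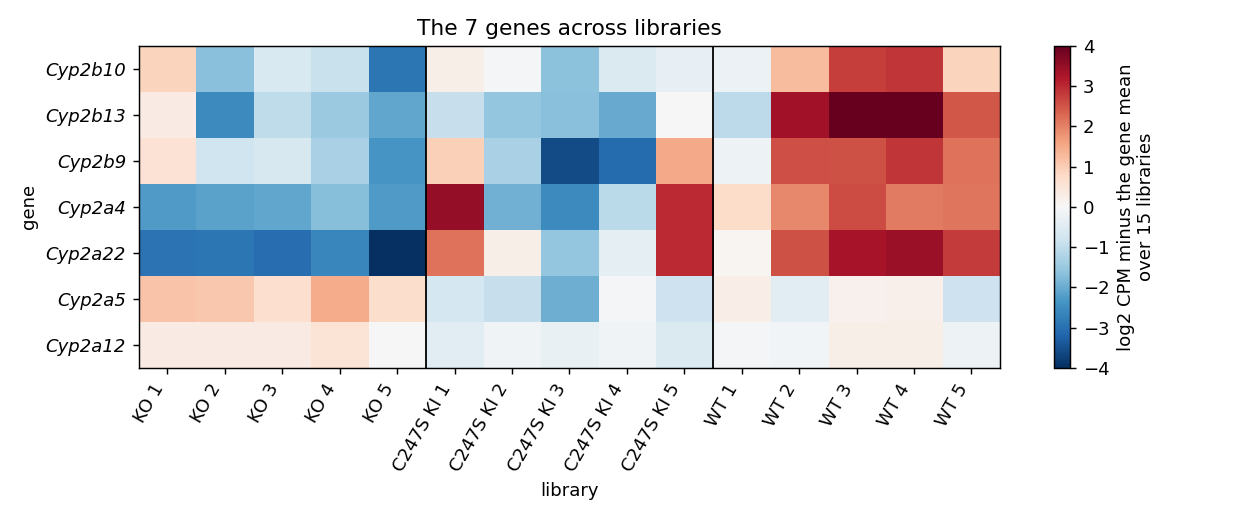
Log2 CPM of each member in each library minus the member's mean over the 15 libraries, with KO, C247S KI and WT libraries from left to right; colours end at -4 and 4. WT 1 is lower than the other WT libraries for the 3 Cyp2b genes, Cyp2a4 and Cyp2a22, and C247S KI 1 and 5 differ from the rest of their group for Cyp2a4, Cyp2a22 and Cyp2b9.

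Outside the family, the genes whose log2 CPM was most like each member's over the 15 libraries were listed by Pearson's r, again as a description. For Cyp2a5 they were Cyp2c37 (r = 0.948), another P450 of the CAR target list, and Macrod1 (0.934). For Cyp2a4 they were Slc22a27 (0.916) and Hao2 (0.911). For Cyp2a12 they were Dcxr (0.943) and Akip1 (0.934), and for Cyp2a22 Tubb2a (0.961) and Gsta1 (0.959). For Cyp2b9 they were Vldlr (0.894) and Rdh10 (0.883). Cyp2b10 and Cyp2b13 shared Wfdc2 as the most similar gene (0.894 and 0.90), followed by Dync1i2 (0.893) for Cyp2b10 and Atp6v1b2 (0.878) for Cyp2b13.

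The other Cyp2 genes of the same stretch of chromosome 7 were mostly near 0 in these livers. Of 6 such genes, 3 passed the filter on low counts, with a median log2 fold change of 0.01 in KO against WT, while Cyp2b23 had 0 counts in every library and Cyp2b19 and Cyp2t4 had 28 and 71 counts in all. Cyp2g1, an olfactory P450, averaged 1.40 ± 0.763 CPM in KO, 0.380 ± 0.165 in C247S KI and 0.420 ± 0.295 in WT livers. It was higher in KO than in WT by a log2 fold change of 1.74 (SE 0.45, adjusted p = 0.0302, edgeR) and higher than in C247S KI by 1.85 (SE 0.46, adjusted p = 0.0173). The call against WT was lost without KO 2, KO 3, WT 2, WT 3 or WT 4, at 1.41 to 1.65, and that against C247S KI without KO 2, at 1.52. Cyp2f2, a periportal P450, averaged 666 ± 86.5, 724 ± 150 and 818 ± 89.8 CPM in KO, C247S KI and WT, with log2 fold changes that did not pass the threshold.

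Among 12 regulators of the CAR and PXR pathway, 2 were higher and 0 lower in KO than in WT, with a median log2 fold change of 0.06. Over all genes tested, 2.56% were higher and 4.19% lower in KO than in WT, and 4.41% and 5.85% in KO against C247S KI. These shares belong beside the gene lists below as well, which were chosen with earlier results known. CAR itself (Nr1i3) averaged 350 ± 59.9 CPM in KO, 312 ± 127 in C247S KI and 245 ± 96.6 in WT, and did not pass in any comparison (adjusted p = 0.265, 0.678 and 0.728 for KO against WT, C247S KI against WT and KO against C247S KI, edgeR). PXR (Nr1i2) averaged 113 ± 9.67, 132 ± 8.31 and 132 ± 19.9 CPM. The receptor partner Rxrb was at 50 ± 1.63 CPM in KO, against 35.8 ± 2.91 in C247S KI and 36.2 ± 1.91 in WT, without overlap. Its log2 fold change was 0.47 against WT (SE 0.08, adjusted p = 0.00347, edgeR) and 0.48 against C247S KI (SE 0.08, adjusted p = 0.00165). Between C247S KI and WT 0 of these regulators passed, and in KO against C247S KI 1 was higher and 1 lower.

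Of 26 tested targets of CAR and PXR outside the family, 0 were higher and 8 lower in KO than in WT, with a median log2 fold change of -0.34. The shares over all genes tested were 2.56% higher and 4.19% lower. Between C247S KI and WT 0 of 26 passed, with the same median of -0.34, and in KO against C247S KI 3 were higher and 5 lower, with a median of -0.07. The glutathione transferase Gsta1 averaged 0.173 ± 0.286 CPM in KO, 4.18 ± 4.92 in C247S KI and 7.29 ± 4.77 in WT, with a log2 fold change of -5.40 for KO against WT (SE 1.06, adjusted p = 0.0068, edgeR). Gsta1 was at -7.06 without KO 4, and its call was lost in limma-voom (adjusted p = 0.057). Cyp2c37 had its highest mean in KO, at 255 ± 53.1 CPM in KO, 95.8 ± 28.0 in C247S KI and 166 ± 39.7 in WT. Its difference passed in KO against C247S KI (log2 fold change 1.41, SE 0.22, adjusted p = 0.000868) and not in KO against WT (0.62, adjusted p = 0.0858).

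The list of regulators described for Cyp2a4 and Cyp2a5 held 11 tested genes, of which 1 was higher and 0 lower in KO than in WT, with a median log2 fold change of 0.08. This was Dbp, a clock-driven PAR bZIP factor, at 182 ± 51.0 CPM in KO, 60.5 ± 20.6 in C247S KI and 85.2 ± 20.2 in WT. KO libraries were above all others, by a log2 fold change of 1.09 over WT (SE 0.24, adjusted p = 0.0123, edgeR) and 1.59 over C247S KI (SE 0.24, adjusted p = 0.000854). Its relative Tef was at 213 ± 3.02, 163 ± 14.6 and 172 ± 16.1 CPM. Tef passed the threshold in KO against C247S KI (0.39, SE 0.10, adjusted p = 0.0182, edgeR) and not in KO against WT (0.31, adjusted p = 0.0611). Without KO 5, C247S KI 5 and WT 1 its call against C247S KI was lost, at an edgeR adjusted p of 0.06. In that comparison with C247S KI 2 of 11 were higher and 1 lower, and between C247S KI and WT 0 of 11 passed. Hnf4a and Nfe2l2 did not pass in any comparison. Time of day of collection is not given in the labels, and its part in the values of Cyp2a5 was not tested.

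Among 7 redox partners and haem supply genes 0 were higher and 1, Cyb5b, lower in KO than in WT, with a median log2 fold change of -0.01. P450 reductase (Por), which feeds every member electrons, averaged 1026 ± 199 CPM in KO, 1051 ± 310 in C247S KI and 882 ± 193 in WT and did not pass in any comparison. In KO against C247S KI 1 of the 7, Cyb5a, was higher, and in C247S KI against WT 0 passed.

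Genes with known sex bias in mouse liver were counted in the same fit. Of 11 tested female-biased genes outside the family, out of 22 listed, 1 was higher and 4 lower in KO than in WT, with a median log2 fold change of -0.52. Of 19 male-biased genes 7 were higher and 0 lower, with a median of 1.02. The shares over all genes tested were 2.56% higher and 4.19% lower in KO than in WT. The female-biased oxidase Hao2 was at 0.101 ± 0.102 CPM in KO, 0.694 ± 0.733 in C247S KI and 2.87 ± 1.70 in WT, with a log2 fold change of -4.78 for KO against WT (SE 0.83, adjusted p = 0.00342, edgeR), or -5.42 without KO 1. The peroxisomal transporter Abcd2 was at 6 ± 0.44, 22.2 ± 12.5 and 22 ± 4.58 CPM in KO, C247S KI and WT, lower in KO than in WT by -1.87 (SE 0.32, adjusted p = 0.00287). The cytokine receptor Lifr, which is female-biased too, was higher, at 192 ± 26 CPM in KO, against 86.4 ± 24.0 in WT (1.15, SE 0.21, adjusted p = 0.00386). The male-biased Susd4 was at 46.5 ± 8.01 CPM in KO, 19.3 ± 6.57 in C247S KI and 13.1 ± 2.44 in WT (1.83 for KO against WT, SE 0.21, adjusted p = 0.000218).

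In C247S KI against WT 0 genes of either sex-biased list passed, and the medians were 0.16 and 0.42. In KO against C247S KI 1 female-biased gene was higher and 3 lower, and 4 male-biased genes were higher and 1 lower. Of 11 growth hormone axis genes 2 were higher and 0 lower in KO than in WT, with a median log2 fold change of 0.14. Between C247S KI and WT 0 of these 11 passed, and in KO against C247S KI 2 were higher. Against WT and against C247S KI alike, the genes higher in KO were Igfals and Bcl6, and Bcl6 is also counted among the male-biased genes. Stat5b did not pass in any comparison. The part of these genes in the values of Cyp2a4, Cyp2a22, Cyp2b9 and Cyp2b13 was not tested.

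Cell type markers were counted likewise. Over all genes tested, 2.56% were higher and 4.19% lower in KO than in WT, and 4.41% and 5.85% in KO against C247S KI. Of 10 pericentral markers, the zone in which Cyp2a5 and Cyp2b10 are known to be expressed, 1 was higher in KO than in WT and 3 were higher in KO than in C247S KI, with medians of 0.43 and 0.51. Of 9 periportal markers 1 was lower in both. Of 8 hepatocyte markers 0 were higher and 1 lower in KO than in WT, and 2 were lower in KO than in C247S KI. Of 6 cholangiocyte markers 2 were lower in KO than in C247S KI, of 7 endothelial markers 2 were lower in KO than in WT and 1 in KO than in C247S KI, and of 4 tested T, NK and B cell markers 1 was lower in KO than in WT. Macrophage and stellate markers passed in 0 cases, and in C247S KI against WT no cell type marker passed. Their part in the values of the members was not tested.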

How the data were processed

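Liver RNA of 15 libraries, 5 each of KO, C247S KI and WT, had been quantified by the submitters with kallisto 0.50.1 after Trimmomatic 0.39, with DESeq2 and mm10 also named, per the submitters' processing notes. In the deposited table each transcript has an estimated count, rounded to a whole number, for which reads matching several transcripts were divided among them. Near-identical members are uncertain for that reason, and the sources used here name no transcript set. Of 115911 transcripts, 114331 (98.64%) matched GENCODE release 21 of the mouse series by identifier without version, and the 1580 others, 0.366% to 0.459% of each library, were left out. Counts were summed by gene symbol and filtered with edgeR's filterByExpr by group (minimum count 10, minimum total 15).

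All 15 libraries entered one group-means fit in edgeR 4.0.16 (R 4.3.3) with TMM factors and the quasi-likelihood test, and p-values were adjusted by Benjamini-Hochberg over 13916 genes at a threshold of 0.05. CPM and CPM per kilobase, each transcript divided by its annotated length, were computed from the same counts. Alternatives were DESeq2 1.42.0, limma-voom (limma 3.58.1), RLE factors, no filter, a mean count of 50, a block for replicate number, a fit of only the 2 groups in question, paralogues summed, and each library left out. Motif windows and alignments came from RefSeq GRCm38.p6, aligned with Biopython 1.88, and all 7 members matched.

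The members and gene lists were chosen with earlier results of these data known. Beyond the members, up to 3 called genes of lowest p per list and comparison were eligible to be named, with values of some others given where a member's regulation is known to involve them, chosen after their values were seen. For each member, the 2 most correlated genes other than predicted gene models were named. The replicate numbers of the titles did not pair the samples.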

Additional observations from a re-analysis of the deposited data

How the results depend on the processing

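Every member called in KO against WT or KO against C247S KI kept its direction under every alternative that kept it as a feature of its own. When Cyp2a4 and Cyp2a5 were summed the sum was at 1.07 in KO against WT and 1.77 in KO against C247S KI, opposite in sign to Cyp2a4 alone, because Cyp2a5 supplied nearly all of its counts.

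Members called lower fell to 2, 0 and 0 under limma-voom in KO against WT, C247S KI against WT and KO against C247S KI, and to 0 in C247S KI against WT with only the 2 groups compared. Over all genes DESeq2 called 1505 in KO against WT and 65 in C247S KI against WT, against 939 and 12. In C247S KI against WT no filter gave 20 and only 2 groups gave 6. Leaving out 1 library gave 521 to 928 genes in KO against WT, with 0 to 1 members higher and 3 to 5 lower. It gave 4 to 24 genes in C247S KI against WT, with 0 to 1 members lower, and 784 to 2272 genes in KO against C247S KI. Without WT 1, C247S KI 3 and C247S KI 5, left out after seeing the data, KO against WT had 1542 genes. Without KO 5, C247S KI 5 and WT 1, also left out after seeing the data, KO against C247S KI had 788 genes and 1 member lower. At an unadjusted p under 0.05 the numbers were 3239, 1371 and 3754.

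The replicate numbers did not pair the samples: 4 of 15 same-number pairs had correlated deviations above 0.1, and 1 of 15 libraries correlated best with its own number in both other groups. A replicate block gave 6 genes in C247S KI against WT. It left 4 members lower in KO against WT, without Cyp2b9 (-3.19, edgeR adjusted p = 0.0534), 0 in C247S KI against WT, without Cyp2b13 (-4.44, 0.129), and 1 in KO against C247S KI, without Cyp2a4 (-3.46, 0.0607). Members with few counts, Cyp2a22 and Cyp2b13 in KO, are limited by depth.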
